A study of Mus musculus with 5 samples.

Results

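The 9 genes of the membrane-bound adenylyl cyclases, Adcy1 to Adcy9, were examined in neuronal nuclei of the mouse striatum. They were taken by gene symbol from the authors' 4 lists of regions near transcription start sites, and all 9 of them, out of 21031 protein-coding genes, had a region in at least 1 list. The nuclei came from 8-week-old C57BL/6 mice and were sorted on NeuN, a nuclear protein of neurons in general, and the labels name the cells medium spiny neurons, the GABA-releasing projection neurons of the striatum. The authors sequenced chromatin precipitated with antibodies against H3K4me3, a mark of promoters, H3K27ac, found at active promoters and enhancers, RNA polymerase II (Pol II), and H3K27me3, the mark of Polycomb repression, and 1 input library. No genotype or treatment divides the samples, and the number of mice pooled is not given in the sources used here. Each antibody has 1 library, so no value has a replicate error, no test across samples was possible, and read depth is not known from the lists.

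Adenylyl cyclases make cyclic AMP (cAMP) from ATP and so pass signals from G protein-coupled receptors to protein kinase A. The stimulatory G proteins Gs and Golf switch them on, and Gi and Go hold some of them back. The isoforms are grouped by what else controls them. Adcy1, Adcy3 and Adcy8 encode the isoforms stimulated by calcium and calmodulin, Adcy2, Adcy4 and Adcy7 those stimulated by G protein beta-gamma subunits, Adcy5 and Adcy6 a closely related pair inhibited by calcium and by Gi, and Adcy9 an isoform that responds poorly to forskolin. In medium spiny neurons the product of Adcy5 is the main cyclase downstream of the dopamine and adenosine receptors encoded by Drd1 and Adora2a, which act through Golf.

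The label of the nuclei was checked against marker genes. Of 15 medium spiny neuron markers, 15 had an H3K4me3 region, 14 had an H3K27ac region and 14 had a Pol II region, and Pdyn was the gene that lacked the last 2. H3K27me3 was listed at 6 of them, Drd1, Drd2, Adora2a, Penk, Tac1 and Pdyn. Of 15 markers of glia and blood vessels, 7 had an H3K4me3 region, 12 had an H3K27me3 region and none had an H3K27ac or a Pol II region. Over all coding genes the shares were 68.4% for H3K4me3, 51.5% for H3K27ac, 41.7% for Pol II and 42.5% for H3K27me3. NeuN does not separate medium spiny neurons from the interneurons of the striatum, and a mark on some of the nuclei cannot be told apart here from a weaker mark on all of them.

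The family fell into 3 combinations of marks. Adcy1, Adcy3, Adcy5 and Adcy9 had H3K4me3, H3K27ac and Pol II regions without H3K27me3, as had 34.8% of coding genes. Adcy2, Adcy6 and Adcy8 had H3K4me3, H3K27ac and H3K27me3 regions without Pol II, a combination of 4.4% of coding genes. Adcy4 and Adcy7 had H3K4me3 and H3K27me3 regions alone, as had 13.4% of coding genes. No member had regions of all 4 antibodies, as 5.93% of coding genes did, and none lacked H3K4me3. All 3 isoforms stimulated by beta-gamma subunits were among the 5 members with H3K27me3, a mark listed at 42.5% of coding genes. The Adcy4 region was also listed for other genes. The calmodulin-stimulated isoforms were divided between the groups, with Adcy8 apart from Adcy1 and Adcy3, and so was the related pair Adcy5 and Adcy6.

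**Figure D1:**
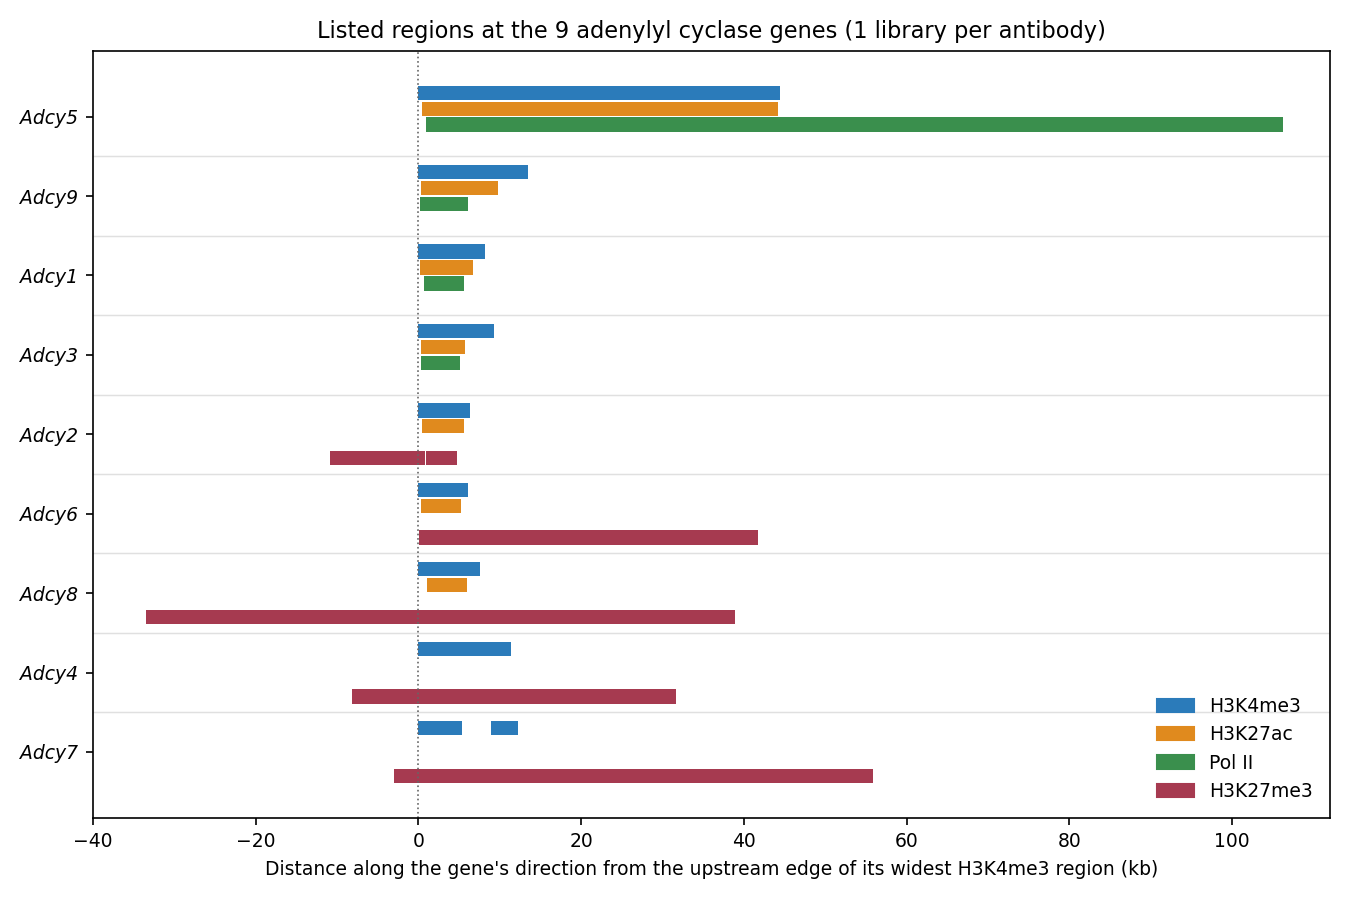
Regions listed at each cyclase gene, drawn along the direction of transcription, with the distance in kb from the upstream edge of the gene's widest H3K4me3 region on the horizontal axis and 1 row of bars per gene. Bars are the H3K4me3, H3K27ac, Pol II and H3K27me3 regions of 1 library each. At Adcy5 the Pol II bar ends 106.2 kb downstream of that edge, and the H3K27me3 bars occur in the lower 5 genes alone.

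By mark, H3K4me3 was listed at 9 of 9 members against 68.4% of coding genes, and H3K27ac at 7 of 9 against 51.5%. Pol II was listed at 4 of 9 members against 41.7% of coding genes, and H3K27me3 at 5 of 9 against 42.5%, so the last 2 shares of the family, 44.4% and 55.6%, lay near or somewhat above those of all genes. The joint listing of H3K4me3 and H3K27me3 was found at 5 of 9 members and 24.2% of coding genes, and that of H3K27ac and H3K27me3 at 3 of 9 members and 10.4% of coding genes. With so few genes these counts describe the family and single nothing out. Pol II was listed at all 4 members without H3K27me3 and at none of the 5 with it. Over all genes with H3K4me3, Pol II was listed at 79.8% of those without H3K27me3 and at 26.4% of those with it. H3K27ac was listed at 4 of 4 and 3 of 5 members in these groups, and at 92.9% and 42.7% of all genes with H3K4me3.

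Promoter sequences are shown for 3 members, 1 from each combination of marks, because the share of CpG dinucleotides differed among them. They are the 250 bases before the RefSeq start in build GRCm38.p6, a later build than the mm9 of the regions, written 5′ to 3′ on the gene's strand with each CpG in capitals. The Adcy5 window lies at chr16:35154614-35154863 on the plus strand, that of Adcy2 at chr13:68999542-68999791 on the minus strand, and that of Adcy4 at chr14:55784073-55784322 on the minus strand.
Adcy5: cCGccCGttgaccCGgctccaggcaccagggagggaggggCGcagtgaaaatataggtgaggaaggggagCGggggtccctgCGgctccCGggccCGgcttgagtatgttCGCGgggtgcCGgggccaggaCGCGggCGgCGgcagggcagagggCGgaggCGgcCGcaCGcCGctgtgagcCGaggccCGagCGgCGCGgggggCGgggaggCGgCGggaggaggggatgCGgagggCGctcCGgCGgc
Adcy2: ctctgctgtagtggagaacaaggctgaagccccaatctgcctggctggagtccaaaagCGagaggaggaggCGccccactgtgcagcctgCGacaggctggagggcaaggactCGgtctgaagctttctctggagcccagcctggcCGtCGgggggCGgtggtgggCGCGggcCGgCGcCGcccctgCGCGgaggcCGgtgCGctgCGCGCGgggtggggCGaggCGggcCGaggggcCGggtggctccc
Adcy4: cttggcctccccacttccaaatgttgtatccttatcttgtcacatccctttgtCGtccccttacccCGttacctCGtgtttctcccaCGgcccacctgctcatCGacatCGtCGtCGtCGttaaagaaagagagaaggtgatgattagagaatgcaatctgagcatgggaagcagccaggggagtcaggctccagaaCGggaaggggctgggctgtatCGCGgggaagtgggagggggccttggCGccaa

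The Adcy5 window held 32 CpGs, the Adcy2 window 23 and the Adcy4 window 13, against a median of 10 over 20488 windows of coding genes. Windows were matched for 7 of the 9 members, with no entry for Adcy6 and Adcy8, and Adcy3 and Adcy7 had more than 1 window. Adcy9 had 34 CpGs and Adcy1 had 26. Adcy3 had 27 in the first of its windows and 6 in the second, and the 3 windows of Adcy7 had 5, 3 and 3. The CpG-poor windows in the family were thus those of Adcy7 and the second start of Adcy3. Over all coding genes the median was 18 CpGs in windows of genes with H3K4me3, H3K27ac and Pol II alone, 13 with H3K4me3, H3K27ac and H3K27me3 alone, 9 with H3K4me3 and H3K27me3 alone, and 2 in genes with no listed region. The GC box GGGCGG, counted on both strands, occurred 4 times at Adcy5, 4 times at Adcy9, 3 times at Adcy1, 2 times at Adcy2 and 1 time each in the first Adcy3 window and the third Adcy7 window, and 43.9% of all windows held it at least once. The core TGACG of the cAMP response element, also on both strands, occurred 1 time at Adcy9 and 1 time in the first Adcy7 window, and 20.7% of all windows held it. The full element TGACGTCA, which contains this core and was found in 2% of all windows, and the TATA box TATAAA, found in 11.5%, did not occur in the 10 member windows.

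Adcy5 had the widest region of the family in each of the 3 lists that hold it. Its H3K4me3 region was 44.5 kb wide (mm9, chromosome 16, 35151401 to 35195900), the 27th widest of 13142 regions. Its H3K27ac region was 43.7 kb wide (35151901 to 35195600), the third widest of 9781. Its Pol II region was 105.2 kb wide (35152401 to 35257600), the third widest of 7799. The H3K4me3 and H3K27ac regions had nearly the same bounds, and the Pol II region began 1.0 kb inside the upstream edge of the H3K4me3 region and ran 61.7 kb past its downstream edge. All 3 regions were listed for Adcy5 and for no other gene. Counting Adcy5, 82 coding genes had an H3K4me3 region at least as wide, 4 such an H3K27ac region and 4 such a Pol II region. No other gene was as wide in all 3 lists, among 8565 genes with regions in each of them. The limits were the widths of Adcy5 itself, so this last count singles nothing out. Bcl11b was wider for H3K4me3 (73.9 kb) and H3K27ac (65.3 kb), and Pde10a for H3K4me3 (109.7 kb) and Pol II (193.2 kb).

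The other isoforms had narrower regions. The 8 other H3K4me3 widths ran from 5.4 to 13.5 kb with a median of 7.9 kb, the 6 other H3K27ac widths from 4.9 to 9.5 kb, and the 3 other Pol II widths from 4.8 to 5.9 kb. The medians over coding genes in the lists were 6.6, 5.3 and 4.9 kb, and Adcy9 lay above them at percentiles 90.1, 95.5 and 85.6 of width. In each list the next widest active member was Adcy9, and Adcy5 exceeded it 3.3 times for H3K4me3, 4.6 times for H3K27ac and 17.83 times for Pol II. In width Adcy5 thus stood outside the range of its relatives, and most of all for Pol II.

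The score, a value over input that the authors gave each region, also placed Adcy5 first among the members in the 3 lists that hold it. A score is used here to rank regions within 1 list, and no list holds a region below a score of 2. For H3K4me3 Adcy5 scored 13.58, followed by Adcy9 with 12.84, Adcy1 with 10.38 and Adcy3 with 7.93, against a median of 7.32 over coding genes in that list. Adcy8 (7.58) also lay above that median, and Adcy6 (6.27), Adcy2 (6.24), Adcy7 (4.33) and Adcy4 (3.12) below it. For H3K27ac the order of the leading members was the same, with 11.77 at Adcy5, 7.82 at Adcy9, 6.70 at Adcy1 and 4.28 at Adcy3. Adcy2 (3.92), Adcy6 (3.02) and Adcy8 (2.47) came below the median coding gene of that list, 4.06. For Pol II the scores were 5.45 at Adcy5, 4.0 at Adcy9, 2.93 at Adcy1 and 2.47 at Adcy3, and the last of these lay below the median of 2.79. The 4 members with Pol II therefore kept 1 order in all 3 lists. With 1 library per antibody it is not known which neighbours in this order would differ beyond replicate error.

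**Figure D2:**
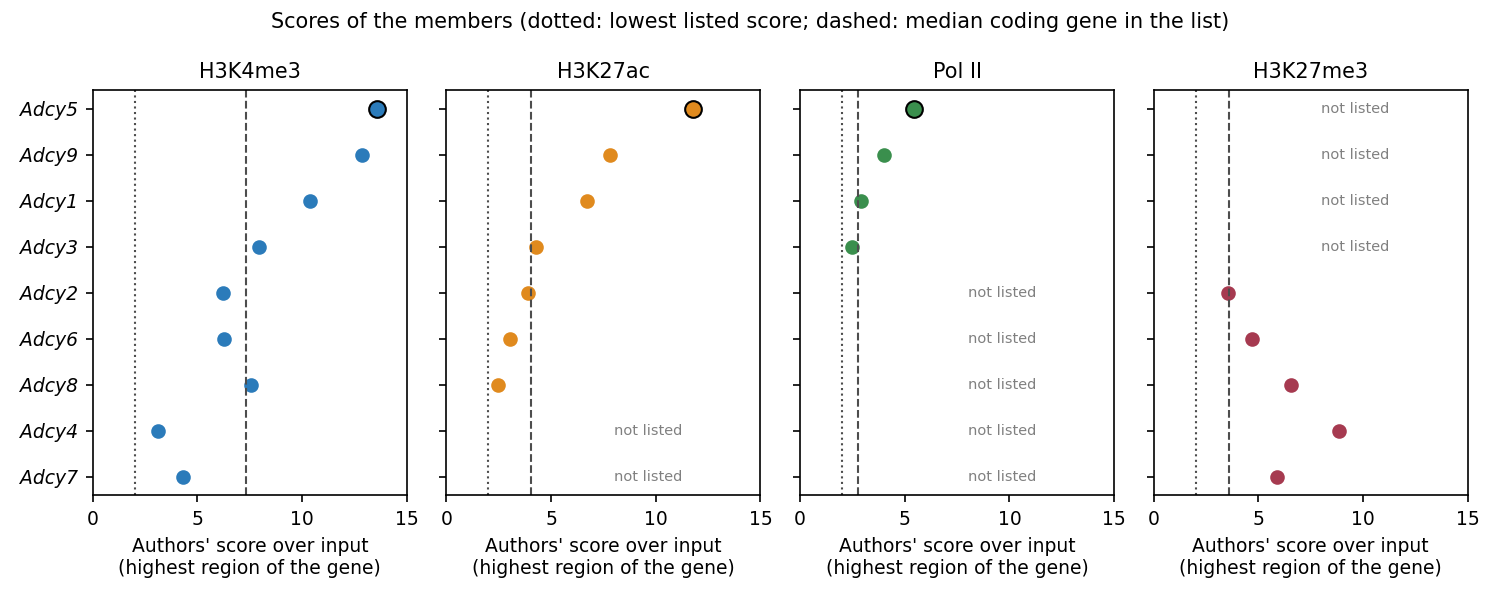
Authors' score over input of the highest-scoring region of each cyclase gene, with 1 panel per antibody and the genes in rows. The dotted line is the lowest listed score, just above 2, and the dashed line the median coding gene in that list, and Adcy5 (outlined points) is farthest right in the H3K4me3, H3K27ac and Pol II panels.

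The reach of Pol II past H3K4me3 also set Adcy5 apart in the family. At Adcy9, Adcy1 and Adcy3 the Pol II region ended inside the H3K4me3 region, 7.4, 2.6 and 4.2 kb before its downstream edge. Of 8682 coding genes with overlapping H3K4me3 and Pol II regions, 144 (1.7%) had Pol II past the downstream edge of H3K4me3, and the median gene had it end 1.3 kb short of that edge. Adcy5 had rank 3 of these genes, after Phactr1, which encodes an actin-binding regulator of protein phosphatase 1, with 129.8 kb, and Pde10a with 83.5 kb. The H3K27ac region of Adcy5 was 0.98 times as wide as its H3K4me3 region, and the ratio was between 0.58 and 0.82 at the 6 other members with H3K27ac, against a median of 0.80 over coding genes. In Adcy5 both histone marks spread together, and at Adcy3 and Adcy9 H3K27ac ended 3.6 and 3.7 kb before H3K4me3 did.

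**Figure D3:**
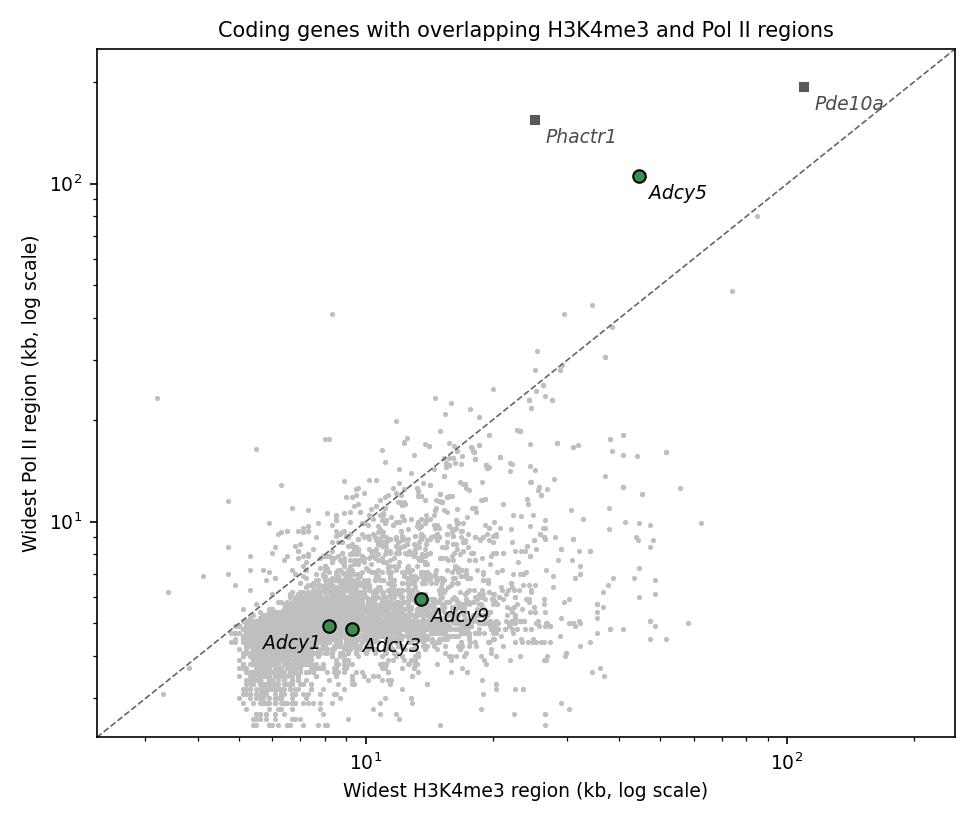
Width of the widest Pol II region against that of the widest H3K4me3 region, in kb on log scales, for 8682 coding genes in which they overlap (grey points), with the 4 cyclase genes in green and the line of equal width dashed. Adcy5 lies above that line at 44.5 and 105.2 kb, near Pde10a and Phactr1, and Adcy1, Adcy3 and Adcy9 lie below it among most genes.

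The 3 active members other than Adcy5 were Adcy9, Adcy1 and Adcy3. Adcy9 had a 13.5 kb H3K4me3 region (mm9, chromosome 16, 4409601 to 4423100) whose score ranked 193rd of 13142, and its H3K27ac region was 9.5 kb wide. Adcy1, whose product is known from cortical and hippocampal neurons, had H3K4me3 over 8.2 kb (chromosome 11, 6960901 to 6969100), a 6.5 kb H3K27ac region and a 4.9 kb Pol II region. Adcy3, the cyclase of olfactory cilia and of primary cilia in neurons, had H3K4me3 over 9.3 kb (chromosome 12, 4130701 to 4140000), a 5.4 kb H3K27ac region and a 4.8 kb Pol II region. All 3 listed transcripts of Adcy3 shared these regions, so the lists do not show which of its starts carries them.

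At Adcy2, Adcy6 and Adcy8, H3K27me3 was listed together with H3K4me3 and H3K27ac, in 3 different layouts. At Adcy6, the closest relative of Adcy5, a 41.6 kb H3K27me3 region (mm9, chromosome 15, 98401201 to 98442800) began 0.1 kb inside the upstream edge of the 6.1 kb H3K4me3 region and ran 35.6 kb past its downstream edge. At Adcy8, a 72.4 kb region (chromosome 15, 64718201 to 64790600), the widest H3K27me3 region of the family, reached 33.5 kb upstream and 31.3 kb downstream of H3K4me3. At Adcy2 there were 2 regions, 11.6 kb wide on the upstream side (chromosome 13, 69140201 to 69151800) and 3.7 kb wide inside the H3K4me3 region (69136301 to 69140000). H3K27me3 thus lay over the gene body side at Adcy6, on both sides at Adcy8, and mainly upstream at Adcy2. The second Adcy2 region scored 2.12, near the lowest listed score, and the first scored 3.57, about the median coding gene of the H3K27me3 list, 3.59. The H3K27ac regions of the 3 genes, 4.9 to 5.2 kb wide, lay wholly inside H3K4me3.

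At Adcy4 and Adcy7 no H3K27ac or Pol II region was listed. Adcy4 had the highest H3K27me3 score of the family, 8.87, over a 39.9 kb region (mm9, chromosome 14, 56378301 to 56418200), and the lowest H3K4me3 score, 3.12, over 11.4 kb (56398601 to 56410000). These regions were not its own. The H3K4me3 region was also listed for Ripk3, a kinase gene of necroptosis, and the H3K27me3 region for Ripk3, Cideb and the leukotriene B4 receptor genes Ltb4r1 and Ltb4r2. Whether Adcy4 or Ripk3 carries the H3K4me3 cannot be told apart from the lists, and without shared regions Adcy4 has none. Adcy7, known from immune cells, had a 58.9 kb H3K27me3 region (chromosome 8, 90790701 to 90849600) with a score of 5.87, listed for 4 transcripts. It had 2 separate H3K4me3 regions inside that span, 5.4 kb wide with a score of 4.33 (90793701 to 90799100) and 3.3 kb wide with a score of 2.12 (90802601 to 90805900). Each of these was listed for 1 of the 4 transcripts, so H3K4me3 was not listed for the other 2.

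Of the 5 members with H3K27me3, 4 had a region wider than the median coding gene of that list, 15.9 kb, and Adcy2 did not. The widths were 72.4 kb at Adcy8, 58.9 kb at Adcy7, 41.6 kb at Adcy6, 39.9 kb at Adcy4 and 11.6 kb at Adcy2, and the Adcy4 region is the one shared with 4 other genes. Over 4690 coding genes with overlapping H3K4me3 and H3K27me3, the H3K27me3 region was 2.72 times as wide as the H3K4me3 region at the median. The ratio was 10.91 at Adcy7, 9.53 at Adcy8, 6.82 at Adcy6, 3.50 at Adcy4 and 1.81 at Adcy2. H3K27me3 passed the downstream edge of H3K4me3 at 61.5% of those genes and the upstream edge at 81.6%, and among the members it did not pass the upstream edge at Adcy6 or the downstream edge at Adcy2.

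Because listing depends on the threshold of a score of 2, the counts were repeated on the regions that score in the upper 50% of their list. H3K4me3 was then listed at 5 of 9 members, against 37% of coding genes, and lost Adcy2, Adcy4, Adcy6 and Adcy7. H3K27ac was left at 4 members, Adcy1, Adcy3, Adcy5 and Adcy9, against 26.1% of coding genes, and Pol II at 3, without Adcy3, against 21.2%. H3K27me3 was left at the same 5 members, against 25% of coding genes. No member then had H3K27ac and H3K27me3 together, and Adcy8 was the only member with H3K4me3 and H3K27me3. The shares of coding genes with these pairs were not computed at this setting, so these counts single nothing out.

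The genes whose combination of widths and scores was most like that of Adcy5 were sought by the summed difference of percentiles over the 4 lists, a measure over 4 libraries that were also used to describe Adcy5. Among the 8 closest were Pde10a, Ngef, Baiap2, Erf, Gsk3a, Ppp1r1b and Stard3, with distances from 5.1 to 7.3, against a median distance of 558.6 over coding genes. Baiap2 encodes a postsynaptic scaffold protein. Erf and Gsk3a shared their regions with each other, and so did Ppp1r1b, which encodes the protein kinase A target Darpp-32, and Stard3. Pol II regions were 193.2 kb wide at Pde10a, 80.3 kb at Baiap2 and 43.7 kb at Ngef. They were 17.6 kb wide at Erf and Gsk3a and 16.1 kb at Ppp1r1b and Stard3, against 105.2 kb at Adcy5. A small distance in percentiles thus does not mean a similar width. Of the family, Adcy9 was closest with a distance of 45.7 and rank 267, then Adcy1 with 162.6, Adcy3 with 282.4 and Adcy2 with 514.7. Adcy6, the nearest relative by class, was at 617.7, Adcy8 at 619.4, Adcy4 at 671.2 and Adcy7 at 730.3, all beyond the median gene. In this measure a gene without a region in a list counted below every gene listed there. Unlike Adcy5, these members had H3K27me3 and no Pol II region, which adds to their distance.

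The genes that act before and after the cyclases were taken from lists by role, 123 genes in all. Of these, 115 had H3K4me3 (93.5%), 98 had H3K27ac (79.7%), 80 had Pol II (65.0%) and 43 had H3K27me3 (35.0%). The shares of all coding genes were 68.4%, 51.5%, 41.7% and 42.5%. Pol II was listed at 8 of 18 receptors coupled to Gs or Golf and at 12 of 24 coupled to Gi or Go. The receptors with all 4 marks were Drd1, Adora2a and Gpr6 in the first list and Drd2, Chrm4, Grm8 and Adra2c in the second. No cyclase had this combination, and 5.93% of coding genes had it. Among the Gs-coupled receptors with H3K4me3 and H3K27me3 alone, like Adcy4 and Adcy7, were Drd5, Adora2b, Vipr2 and Mc4r, with H3K27me3 scores from 3.21 to 11.15. Drd5 encodes the other D1-type dopamine receptor.

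Of 15 G protein subunit genes, 13 had Pol II (86.7%) and 7 had H3K27me3 (46.7%), against 41.7% and 42.5% of coding genes. The H3K27me3 share thus lay near that of all genes. Gnal, which encodes the alpha subunit of Golf, had a Pol II score of 4.73 and a 15.7 kb Pol II region, with a 4.7 kb H3K27me3 region that scored 2.33. Gng7, which encodes the gamma subunit that pairs with Golf in the striatum, had H3K4me3 over 37.0 kb and H3K27ac over 26.1 kb without H3K27me3. The Golf subunit genes thus had wide active regions, although narrower than those of Adcy5. Wide regions were not particular to them. H3K4me3 was 28.0 kb wide at Gnb5, 18.9 kb at Gnb2 and 18.8 kb at Gnao1, against 16.9 kb at Gnal. Pol II at Gnb5, Gnb2 and Gnao1 covered 11.6 to 13.4 kb, less than the 15.7 kb of Gnal. Gng2 was the subunit gene with H3K4me3 and H3K27me3 alone, the latter over 251.0 kb. The calmodulin genes Calm2 and Calm3, whose product stimulates the Adcy1, Adcy3 and Adcy8 isoforms, had Pol II without H3K27me3, with scores of 5.72 and 5.35.

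Downstream of cAMP, 7 of 9 protein kinase A subunit and inhibitor genes had H3K4me3, H3K27ac and Pol II alone, among them Prkar2b (Pol II score 5.38), Prkar1a (4.53) and Prkacb (3.40). Prkar1b lacked Pol II, and the inhibitor gene Pkib had H3K4me3 and H3K27me3 alone. All 11 genes of kinase A substrates and CREB cofactors had H3K4me3, H3K27ac and Pol II without H3K27me3, and so had 7 of 9 anchoring protein genes. In these lists the combination of Adcy5 was the common one. It was held by 4 of 9 cyclases and by 34.8% of coding genes.

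The phosphodiesterases, which break cAMP down, also differed among themselves. Of 16 genes, 8 had H3K4me3, H3K27ac and Pol II alone, against 34.8% of coding genes. H3K27me3 was listed at 6 (37.5%), against 42.5% of coding genes. Pde10a, the striatal enzyme, and Pde1b, a calmodulin-dependent enzyme, had Pol II over 193.2 and 41.2 kb, the latter in a region shared with Ppp1r1a, and Pde10a was the only 1 of the 80 pathway genes with Pol II whose region was at least as wide as that of Adcy5. Pde8a, Pde3a, Pde1c and Pde11a had H3K4me3 and H3K27me3 alone, with H3K27me3 scores of 10.43, 7.06, 4.43 and 3.50. No phosphodiesterase had the combination of Adcy2, Adcy6 and Adcy8, but 4.4% of coding genes had it, so its absence among 16 genes singles nothing out. Pde4c and Pde4d had H3K27me3 alone. Among 10 related cyclase genes, the soluble guanylyl cyclase genes Gucy1a2, Gucy1a3 and Gucy1b3 had H3K4me3, H3K27ac and Pol II. Their Pol II regions were 5.3 to 5.7 kb wide, against 4.8 to 5.9 kb at Adcy1, Adcy3 and Adcy9. The median over coding genes with Pol II was 4.9 kb, so the similar widths single nothing out. No region was listed for Adcy10, the soluble adenylyl cyclase gene. The differences between these lists and the cyclases were not tested.

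**Figure D4:**
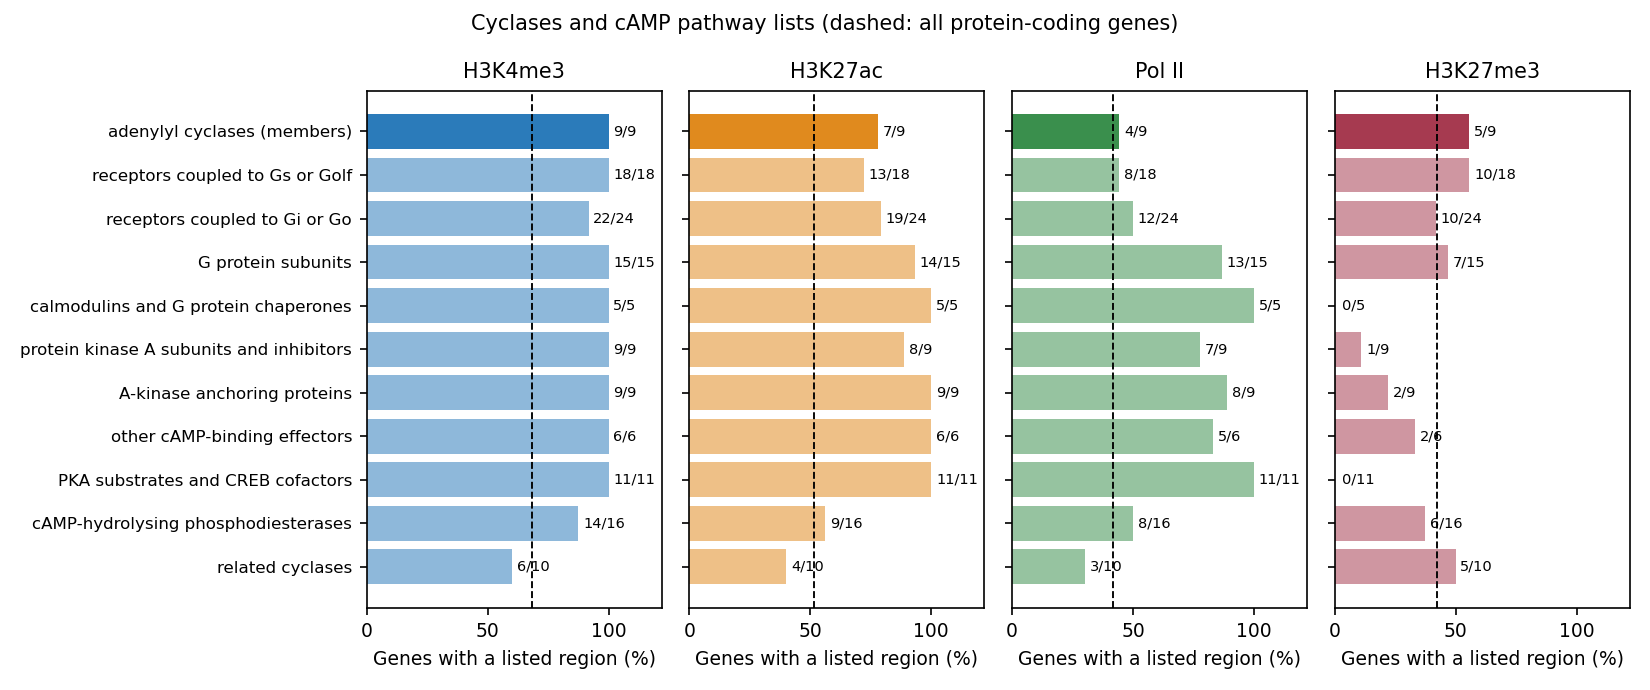
Share of genes with a listed region (%) for the 9 cyclases (dark bars) and for each list of cAMP pathway genes (pale bars), with 1 panel per antibody and the counts beside the bars. The dashed line is the share of all protein-coding genes, and the Pol II bar of the cyclases, 4 of 9, lies close to it, while all 11 kinase A substrate and CREB cofactor genes had Pol II.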

How the data were processed

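Chromatin immunoprecipitation sequencing with 4 antibodies and 1 input library, in 5 samples of sorted striatal neuronal nuclei, was grouped by the antibody in the labels. The submitters' processing notes name build mm9, MACS 1.4 and Bowtie 0.12.7 without saying what each was used for. The deposited lists give regions within 3 kb of transcription start sites, per their names, with a transcript, a symbol and a score that the authors gave each region over input, on a scale not given in the sources used here. Region bounds lie on a 100 bp grid. No reads or signal were used, and depth is unknown.

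Transcripts were matched to RefSeq genes (GRCm38.p6) for their names, and 97.4% to 98.0% of lines matched by accession, the rest by symbol, with 0.244% to 0.669% of lines left out for want of a gene. Shares over all genes refer to 21031 coding genes that have a curated RefSeq transcript. A gene has the width of its widest and the score of its highest region, and a gene without a line counts as not listed, although a gene that was never searched would look the same. Positions are mm9, counted from 1. Promoter sequences are from RefSeq.

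The members and gene lists were chosen with earlier results of these data known. Named genes are the 9 members, genes that share their regions, up to 6 genes per pathway list and combination by score, and the 8 genes most like Adcy5. Phactr1 and single exceptions were named after their values were seen. A few genes under these rules are not reported here. Counts and percentiles were checked on simulated data. Python 3.11.15, numpy 2.4.6, pandas 2.3.3 and matplotlib 3.10.9 were used.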

Additional observations from a re-analysis of the deposited data

How the results depend on the processing

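For 13 results, 31 values were computed under other settings, and 25 of them stayed within 1.5 times of the reported count or equal to it. None changed direction, but none could have, so this does not show stability. A count of members has no direction to reverse. The other choices of region per gene could not move the widths and scores of Adcy5 relative to the other members. All members but Adcy7 have 1 region in each of the H3K4me3, H3K27ac and Pol II lists that hold them. Adcy7 leads none of these lists. The width ratios and score differences of Adcy5 are therefore among the 25 by construction. In the upper 50% of each list by score, members with H3K4me3 fell from 9 to 5, those with H3K27ac from 7 to 4, those with H3K4me3 and H3K27me3 from 5 to 1 and those with H3K27ac and H3K27me3 from 3 to 0. With the same number of regions in each list (7799), members with H3K4me3 numbered 5 and those with H3K4me3 and H3K27me3 numbered 1. These settings keep fewer regions by construction. For H3K27me3 no width ratio or score difference could be given for Adcy5, since it has no listed region. No paired analysis was possible because each antibody has 1 library.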

Other observations

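The genes in which Pol II ran farthest past the downstream edge of H3K4me3 were read off after the values were seen. After Phactr1 (129.8 kb), Pde10a (83.5 kb) and Adcy5 (61.7 kb), the distance was 33.7 kb at Ppp1r1a, which encodes an inhibitor of protein phosphatase 1, 11.7 kb at Cplx2, a complexin gene of vesicle release, and 10.3 kb at Pde1b. Ppp1r1a and Pde1b, which lie on opposite strands, share a single 41.2 kb Pol II region and are not separate cases. Among the next 9 genes were Eno2 (9.3 kb), Gas2l2 (9.2 kb), Ngef (9.1 kb), Calm2 (8.9 kb) and the sodium channel subunit gene Scn4b (6.9 kb). Drd1 (5.8 kb), Dclk1 (5.5 kb) and Arpp21 (5.5 kb), which encodes a protein kinase A substrate of the striatum, were also among them. Of these 15 genes, Adcy5 was the only cyclase.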
